A study of Mus musculus with 7 samples.

Results

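Embryonic globin genes and the regulators that switch them off were followed in G1E cells, a mouse line of erythroid precursors without functional GATA1. The 10 genes chosen were Hbb-y, Hbb-bh1, Hba-x, Bcl11a, Zbtb7a, Sox6, Myb, Lin28b, Igf2bp1 and Hic2. They were taken by name, and 9 of the 10 had a probeset annotated with that symbol alone, among 22180 genes measured in this way. The only listed probeset of Igf2bp1 also carries the name of a miRNA gene, so Igf2bp1 was not measured here. Total RNA was profiled on 7 Affymetrix Mouse Gene 2.0 ST arrays. Of these, 4 held RNA of cells with a CRISPR/Cas9 deletion of the long non-coding RNA gene Lockd, and 3 held RNA of control cells labelled Lockd WT. All 7 arrays share the G1E background, and the submitters' text does not say whether the replicates of a group are separate clones or separate cultures, so the p-values below reflect array-to-array spread that may be partly technical. Levels are log2 values that the authors made with RMA, and a level depends on the probes as well as on the transcript. Levels of different probesets are therefore set against the median of all tested probesets only as a rough guide. The same holds where levels are ranked, averaged or summed within a marker list.

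The first red cells of the mouse embryo arise in the yolk sac and make haemoglobin from embryonic chains. Hbb-y and Hbb-bh1 encode beta-like chains and lie in the beta-globin cluster, and Hba-x encodes the alpha-like zeta chain at the alpha-globin cluster. In definitive red cells these genes are silent and the adult genes are used instead. Bcl11a, Zbtb7a and Sox6 encode DNA-binding repressors of embryonic or fetal globin genes. Myb, Lin28b, Igf2bp1 and Hic2 act further upstream, in part, as known from human erythroid cells, by setting how much BCL11A is made.

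The promoters of Hbb-y and Hba-x are shown because both hold letters that the repressors are known to read. Of the 10 genes, 8 have an entry in the RefSeq promoter table of GRCm38.p6, which runs from 250 bases before to 50 bases after the start of the gene. Hbb-bh1 and Igf2bp1 have none. The Hbb-y window is chr7:103853158-103853457 on the minus strand, and the Hba-x window is chr11:32276350-32276649 on the plus strand. Capitals mark TGACCA, the motif bound by human BCL11A, and CACCC, read by Krüppel-like factors. They also mark the promoter element CCAAT, the Sox site core spelled ACAAT, the TATA-like element ATAAA and the GATA factor motif, each on either strand. The GATA motif was searched as AGATAA or as AGATAG or as TGATAA or as TGATAG.
Hbb-y: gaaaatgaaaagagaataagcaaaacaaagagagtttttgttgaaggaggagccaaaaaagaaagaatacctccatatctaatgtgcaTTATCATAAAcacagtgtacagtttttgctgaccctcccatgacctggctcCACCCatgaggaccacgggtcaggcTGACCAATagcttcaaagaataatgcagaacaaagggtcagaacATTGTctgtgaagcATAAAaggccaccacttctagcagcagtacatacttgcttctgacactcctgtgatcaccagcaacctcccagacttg
Hba-x: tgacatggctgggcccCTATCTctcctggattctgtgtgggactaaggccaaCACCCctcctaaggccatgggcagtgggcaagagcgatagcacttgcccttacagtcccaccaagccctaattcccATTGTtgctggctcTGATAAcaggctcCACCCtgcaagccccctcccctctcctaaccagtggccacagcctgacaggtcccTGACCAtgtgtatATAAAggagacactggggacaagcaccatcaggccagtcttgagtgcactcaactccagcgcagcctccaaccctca

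In the Hbb-y window TGACCA begins 86 bases before the start and overlaps a CCAAT match that begins 83 bases before it. In Hba-x, TGACCA begins 40 bases before the start, and CCAAT has no match. At least 1 TGACCA on either strand was present in 13.6% of all 32851 promoter windows tested, which leave out those of 1 autosome. The share was 57.5% for CACCC, 37.4% for CCAAT, 40% for ATAAA and 31% for ACAAT, each counted on both strands. The GATA motif matched once in the Hbb-y window, as TGATAA on the minus strand 162 bases before the start, where it overlaps an ATAAA match by 1 base. It matched at 2 places in the Hba-x window, as TGATAA on the plus strand 108 bases before the start and as AGATAG on the minus strand 234 bases before it. At least 1 of its 4 spellings was present in 29.8% of all windows. The Myb core AACNG, not marked by capitals, overlaps the TGATAA of Hba-x. It matched once in each window and was present in 80.3% of all. A match describes the letters only, and binding was not measured here.

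The deletion was visible at its own locus. Lockd averaged 4.89 ± 0.48 (SD, n = 4) on deletion arrays and 7.91 ± 0.12 (SD, n = 3) on control arrays. Cdkn1b, the neighbouring gene for the cell cycle inhibitor p27, averaged 8.03 ± 0.15 on deletion and 9.18 ± 0.12 on control arrays. In limma with Benjamini-Hochberg adjustment, these 2 were the only probesets past an adjusted p of 0.05, which is 0.0085% of the 23521 tested. That count was 0 when control replicate 1, 2 or 3 or deletion replicate 1 or 4 was left out, and 2 without deletion replicate 2 or 3. The 7 arrays correlated at 0.993 to 0.996, and control replicate 2 was the array farthest from the others on the leading principal component (29.9% of variance).

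None of the 9 measured globin and switching genes differed between Lockd deletion and control past the threshold. In limma, 0 of 9 passed at an adjusted p under 0.05, and the smallest adjusted p among them was 0.999. At an unadjusted p under 0.05 there was 1 of 9, Hic2, where 4.64% of all tested probesets lay under that value. The groups overlapped for each of the 9, where 5.15% of all tested probesets had groups that did not overlap. The 9 differences ran from -0.22 to 0.11 on the log2 scale, with 7 lower and 2 higher in deletion cells. Their median was -0.05, beside 0.01 over all genes.

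**Figure D1:**
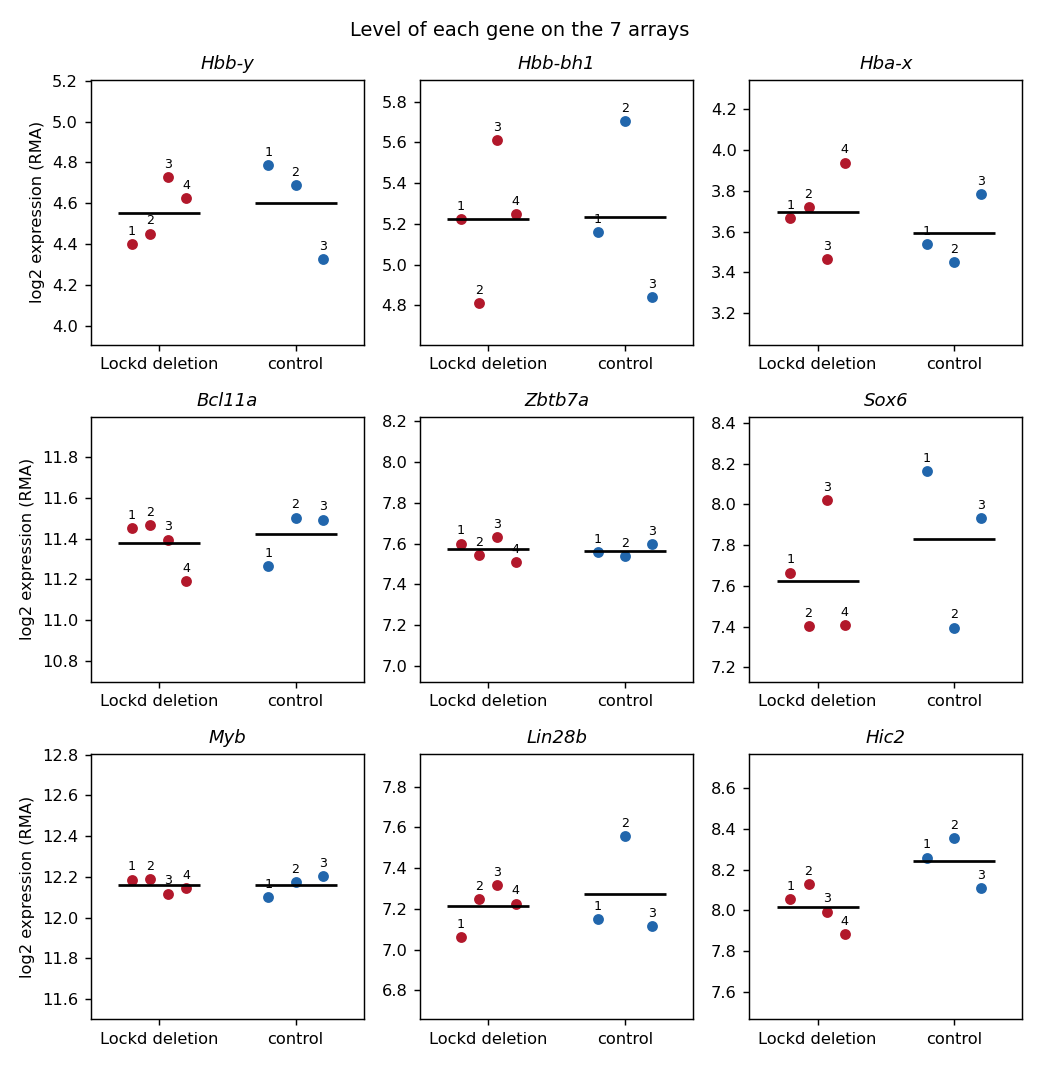
Log2 level (vertical axis, RMA) of the 9 measured genes on the 4 Lockd deletion arrays (red, left) and the 3 control arrays (blue, right), with bars at group means and digits giving replicate numbers. Every panel spans the same height, so the narrow spread of Myb and Zbtb7a can be set against the wide spread of Hbb-bh1 and Sox6; the groups overlap in all 9 panels.

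The embryonic beta-like gene Hbb-y read 4.40, 4.45, 4.73 and 4.62 in deletion replicates 1 to 4, against 4.79, 4.69 and 4.33 in control replicates 1 to 3. The control arrays held both the highest and the lowest of the 7 values. The difference was -0.05 (SE 0.13), with a 95% interval of -0.34 to 0.24, or 20.9% lower to 18.2% higher.

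Hbb-bh1, the other embryonic beta-like gene, had the widest spread of the 9 between arrays of the same group. It read 5.23, 4.81, 5.61 and 5.25 on deletion arrays, against 5.16, 5.70 and 4.84 on control arrays. Deletion replicate 3 and control replicate 2 were high and deletion replicate 2 and control replicate 3 were low, so each group held both ends of the range. The within-group SD was 0.37, wider than for 98.2% of tested probesets. The difference was -0.01 (SE 0.23), with an interval of -0.53 to 0.51, and it became 0.22 without control replicate 2 and -0.21 without control replicate 3. A change of up to about 42.4% upward or 30.7% downward lies inside the interval.

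Hba-x, the gene of the embryonic zeta chain, read 3.67, 3.72, 3.47 and 3.94 on deletion arrays, against 3.54, 3.45 and 3.79 on control arrays. The array order was unlike that of Hbb-bh1, with deletion replicate 3 and control replicate 2 the lowest of their groups. The difference was 0.11 (SE 0.12), with an interval of -0.17 to 0.39. All 3 embryonic globin probesets were dim, below the median of 5.69 over all tested probesets. RMA values carry no detection call, so whether these transcripts lay above background was not measured, and background can make a difference look smaller than it is. Beta-like genes are close in sequence, and cross-hybridisation between them was not tested.

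None of the 3 repressor genes passed the test. Bcl11a, which encodes the zinc finger repressor of embryonic and fetal globin genes, read 11.45, 11.47, 11.40 and 11.19 on deletion arrays, against 11.27, 11.50 and 11.49 on control arrays. One array of each group, deletion replicate 4 and control replicate 1, lay below the rest. The difference was -0.05 (SE 0.09), and its interval of -0.26 to 0.17 spans 16.6% lower to 12.6% higher. A dimmer Bcl11a probeset differed by -0.02 (SE 0.10).

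Zbtb7a, which encodes LRF, a repressor that works independently of Bcl11a, read 7.60, 7.54, 7.63 and 7.51 on deletion arrays, against 7.56, 7.54 and 7.60 on control arrays. All 7 values lay close together, and the difference was 0.01 (SE 0.06), with an interval of -0.14 to 0.15. The interval spans 9.12% lower to 10.9% higher. The sign of so small a value turned when arrays were centred on their medians, which gave -0.018.

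Sox6, a high-mobility-group factor that binds the Hbb-y promoter in mouse and works with Bcl11a, was the least even of the repressors. It read 7.67, 7.40, 8.02 and 7.41 on deletion arrays, against 8.16, 7.40 and 7.93 on control arrays. Deletion replicate 3 lay with the higher control arrays, and control replicate 2 was the lowest array of all by a narrow margin. The difference was -0.21 (SE 0.21), with an interval of -0.68 to 0.26. It was -0.42 without control replicate 2 and -0.04 without control replicate 1. The interval reaches from 37.5% lower to 20.1% higher.

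Among the upstream regulators, Myb showed the smallest difference. Myb, a transcription factor of blood progenitors that sustains KLF1 and BCL11A levels in human erythroid cells, read 12.19, 12.19, 12.12 and 12.14 on deletion arrays, against 12.10, 12.18 and 12.21 on control arrays. The values of the 2 groups were interleaved, and 4.14% of tested probesets had a smaller within-group SD. The difference was -0.00125 (SE 0.06), with an interval of -0.14 to 0.14, or 9.43% lower to 10.2% higher. A dimmer Myb probeset differed by 0.06 (SE 0.08).

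Lin28b, a fetal RNA-binding protein gene whose product blocks let-7 maturation and lowers BCL11A protein in human cells, read 7.06, 7.25, 7.32 and 7.23 on deletion arrays, against 7.15, 7.56 and 7.11 on control arrays. Control replicate 2 was the highest array, and the other control arrays lay among the deletion arrays. The difference was -0.06 (SE 0.12), with an interval of -0.33 to 0.21, and 0.08 without control replicate 2.

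Hic2, a gene whose product represses BCL11A transcription in human cells, had the smallest p of the 9 genes. It read 8.06, 8.13, 7.99 and 7.88 on deletion arrays, against 8.26, 8.35 and 8.11 on control arrays. Deletion replicate 2 lay just above control replicate 3, and the other deletion arrays lay below every control array. The difference was -0.22 (SE 0.09), with an interval of -0.42 to -0.03, which is 14.4% lower, between 25.5% and 1.79% lower at the ends of the interval. It did not pass, with an unadjusted p of 0.0311 and an adjusted p of 0.999 in limma, and an exact two-sided permutation test over the 35 splits of the arrays, by size of the difference, gave p = 0.0857. The smallest p this test can give is 0.0286. A dimmer Hic2 probeset differed by 0.03 (SE 0.15), so the 2 probesets of the gene did not share a direction, and their mean differed by -0.10.

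**Figure D2:**
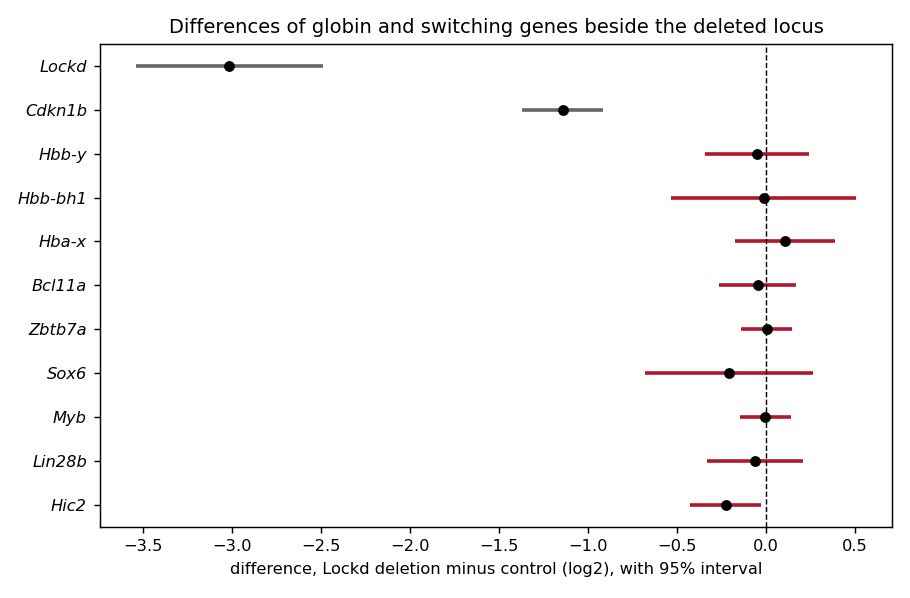
Difference, Lockd deletion minus control, on the log2 scale (horizontal axis) with its 95% interval from limma, for Lockd and Cdkn1b (grey) and the 9 globin and switching genes (red). Lockd at -3.02 and Cdkn1b at -1.14 lie well below 0, while the intervals of the 9 genes lie between -0.68 and 0.51 and only that of Hic2 leaves out 0.

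The adult globin genes were measured only by probesets that name several of them. Of these 5 shared probesets, 3 name Hbb-b1, Hbb-b2 and Hbb-bs and 2 name Hba-a1 and Hba-a2. The brighter adult alpha probeset read 11.54, 11.02, 12.17 and 11.54 on deletion arrays, against 11.46, 12.00 and 11.77 on control arrays. Its difference was -0.17 (SE 0.26). The brightest adult beta probeset read 8.90, 7.56, 9.15 and 8.36 on deletion arrays, against 8.52, 8.55 and 8.08 on control arrays, with a difference of 0.11 (SE 0.36). The deletion arrays alone spanned more than the difference between the groups in both cases, and none of the 5 shared probesets passed.

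The adult probesets had their highest arrays in common with Hbb-bh1, and cross-hybridisation with it was not tested. The 5 adult probesets name only the same beta genes or the same alpha genes, so they are not separate cases. In all 5 of them deletion replicate 3 was the highest deletion array and control replicate 2 the highest control array, as for Hbb-bh1 and Lin28b among the 9 genes. That pair of positions held for 11.8% of all tested probesets. Among single-symbol erythroid marker genes it held for 7 of 16, which were Epor, Sptb, Rhd, Trim10, Xk, Hemgn and Slc4a1. Slc4a1, the band 3 anion exchanger gene of maturing red cells, read 8.84 on deletion replicate 3 and 8.67 on control replicate 2. Its group means were 8.09 ± 0.59 (SD, n = 4) on deletion arrays and 8.16 ± 0.62 (SD, n = 3) on control arrays. The positions also held for 8 of 27 other globin regulators, 3 of 12 let-7 precursors, 3 of 25 chromatin cofactors and 2 of 9 mast cell markers. Those 2 mast cell markers were Tpsab1 and Mcpt4, both below the median level. The positions held for 1 each of 5 alpha cluster neighbours, 12 Lin28 pathway genes and 8 relatives of the regulators. They held for 0 of the 3 other globin genes and of the 8 progenitor, 5 megakaryocyte, 8 myeloid and 7 lymphoid markers. The mast cell receptor gene Ms4a2 was lowest in its group on deletion replicate 3, at 8.07, and on control replicate 2, at 7.55. Cpa3, a mast cell protease gene, was lowest on deletion replicate 4, at 9.88, and on control replicate 2, at 9.53. These positions were seen in the values and not tested.

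**Figure D3:**
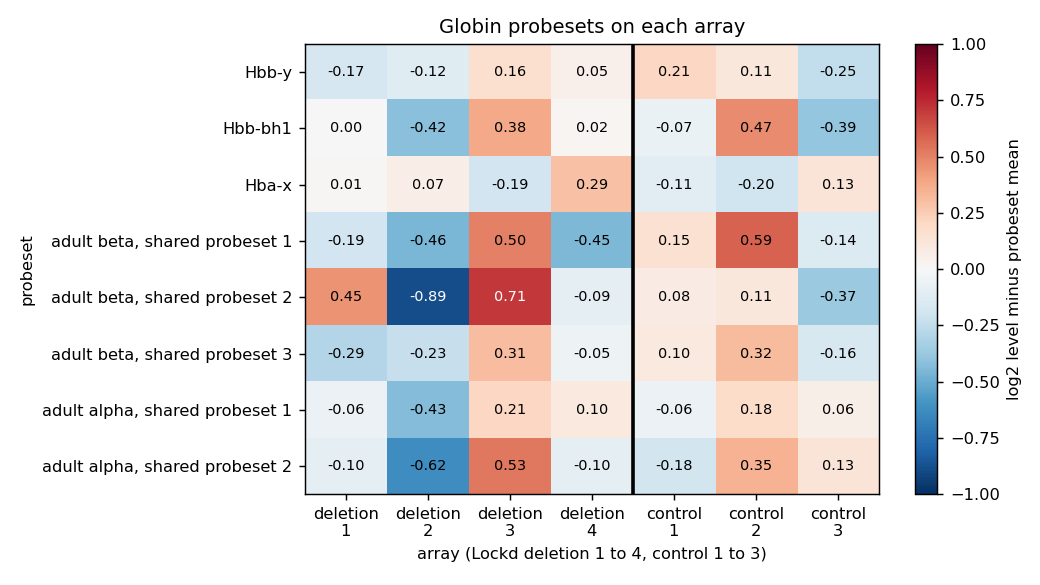
Log2 level of each globin probeset minus its mean over the 7 arrays (colour and printed value), with Lockd deletion arrays 1 to 4 left of the line and control arrays 1 to 3 right of it. For Hbb-bh1 and the 5 shared adult probesets, deletion replicate 3 and control replicate 2 are the highest of their groups, whereas for Hba-x they are the lowest. For the brightest adult beta probeset the margin among control arrays is narrow, at 8.55 on control replicate 2 and 8.52 on control replicate 1.

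Among the other globin genes with a probeset of their own, 0 of 3 passed. Hbq1b, a theta-like gene of the alpha cluster, averaged 5.87 ± 0.38 (SD, n = 4) on deletion and 6.17 ± 0.17 (SD, n = 3) on control arrays, a difference of -0.30 (SE 0.19). Its near copy Hbq1a differed by 0.07 (SE 0.27), and their probes may not tell them apart. Hbb-bh2 differed by 0.13 (SE 0.09). Beside the alpha cluster 0 of 5 neighbours passed. Il9r, an interleukin receptor gene, differed by -0.53 (SE 0.30) and Rhbdf1 by 0.07 (SE 0.07). Nprl3, whose introns hold the enhancers of the alpha cluster, differed by 0.00 (SE 0.11).

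None of the wider set of globin regulators passed either. Of 27 measured, 0 passed and 2 had an unadjusted p under 0.05, 1 lower and 1 higher, where 2.37% and 2.27% of all tested probesets did so in those directions. Their median difference was -0.00103, the value of Klf1, beside 0.01 over all genes. Lmo2, the bridging subunit of the GATA and Tal1 complex, averaged 8.89 ± 0.17 (SD, n = 4) on deletion and 8.59 ± 0.22 (SD, n = 3) on control arrays, a difference of 0.31 (SE 0.13) with overlapping groups. Foxo3, a factor of red cell maturation, averaged 7.85 ± 0.09 on deletion and 8.04 ± 0.10 on control arrays, a difference of -0.19 (SE 0.08) with groups that did not overlap. Nfia, picked after values were seen, differed by 0.24 (SE 0.13), also with groups that did not overlap. Such groups were seen for 5.15% of all tested probesets. Klf1, the erythroid activator of adult beta-globin and of Bcl11a, differed by -0.00103 (SE 0.07). The orphan receptors Nr2c1 and Nr2c2, which repress embryonic globin genes as a dimer, differed by -0.29 (SE 0.17) and -0.10 (SE 0.07). Eif2ak1, the haem-regulated kinase, differed by -0.02 (SE 0.08). Klf1, Nr2c1, Nr2c2, Eif2ak1 and Nprl3 were picked for their known roles after values were seen.

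Chromatin cofactors of these repressors gave 0 of 25 past the threshold and 0 at an unadjusted p under 0.05. Of the 25, 19 were higher in deletion cells, with a median of 0.02 beside 0.01 over all genes. The 25 differences ran only from -0.07 to 0.13. Hdac2, a histone deacetylase gene of the NuRD complex, differed by 0.11 (SE 0.06) with groups that did not overlap, and Rcor1, the CoREST scaffold gene, by 0.13 (SE 0.08). Ezh2, picked after values were seen, differed by 0.07 (SE 0.06), also with groups that did not overlap. Groups did not overlap for 5.15% of all tested probesets. Chd4, the NuRD remodelling ATPase gene, differed by 0.02 (SE 0.07) and Mbd2 by 0.00 (SE 0.06), both picked for their role after values were seen. Close relatives of the member regulators gave 0 of 8, with Hic1 at 0.20 (SE 0.18) and Mybl1 at -0.06 (SE 0.08).

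Genes around Lin28b were examined because Lin28 proteins and let-7 miRNAs oppose each other. Of the mature let-7 sequences of the 12 precursors measured, 4 are given from RefSeq (GRCm38.p6), with the seed, bases 2 to 8, in capitals. The let-7c-5p sequence belongs to both Mirlet7c-1 and Mirlet7c-2. The 11 precursors with a 5p sequence in that table all share the seed GAGGUAG.
mmu-let-7e-5p: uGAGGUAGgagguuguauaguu
mmu-let-7c-5p: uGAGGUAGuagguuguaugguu
mmu-let-7a-5p: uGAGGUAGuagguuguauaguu
mmu-miR-98-5p: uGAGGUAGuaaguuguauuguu

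The arrays measured the precursor genes and not these mature forms. Of 12 let-7 precursors, 0 passed, 10 were lower in deletion cells and 1, a lower one, had an unadjusted p under 0.05, where 2.37% of all tested probesets were lower at that value. The list had a median difference of -0.14 beside 0.01 over all genes. Some of the 12 are close neighbours, so they may not be separate cases. Mirlet7d, Mirlet7f-1 and Mirlet7a-1 lie together on chromosome 13 and Mirlet7c-2 and Mirlet7b on chromosome 15. Mirlet7f-2 and Mir98 lie together on chromosome X. Mirlet7e read 4.67, 4.56, 4.23 and 4.66 on deletion arrays, against 5.06, 5.05 and 4.76 on control arrays. Each deletion value lay below each control value, with a difference of -0.43 (SE 0.13) and an unadjusted limma p of 0.00966. Groups were likewise apart, in either direction, for 5.15% of all tested probesets. Mirlet7c-1 differed by -0.23 (SE 0.14) with overlapping groups. Of the 12 probesets, 10 lay below the median level of all probesets, where background can hide or shrink a change.

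Of the 12 measured protein genes of the Lin28 and let-7 pathway, 0 passed and 1, a higher one, had an unadjusted p under 0.05, where 2.27% of all tested probesets were higher at that value. Trim71, a let-7 target that encodes an RNA-binding ubiquitin ligase, read 6.75, 6.60, 6.81 and 6.71 on deletion arrays, against 6.39, 6.22 and 6.60 on control arrays. The deletion values lay above the control values, deletion replicate 2 by the narrowest margin. The difference was 0.32 (SE 0.10), with an unadjusted limma p of 0.0115. As above, 5.15% of all tested probesets had groups that did not overlap. Arid3a, another let-7 target, differed by -0.20 (SE 0.13). Igf2bp3, the fetal relative of Igf2bp1, differed by -0.03 (SE 0.07) and Lin28a by -0.02 (SE 0.07), both picked after values were seen.

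**Figure D4:**
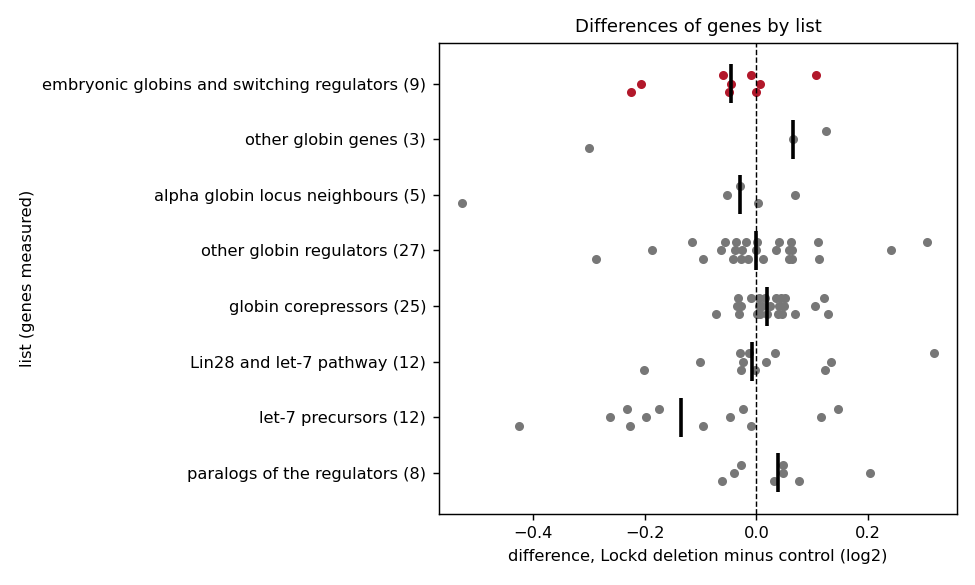
Difference of each gene, Lockd deletion minus control, on the log2 scale (horizontal axis), with 1 row per list, the number of genes measured in brackets and a bar at the median. The 9 globin and switching genes (red) lie between -0.22 and 0.11; the let-7 precursors have the lowest median, at -0.14, and none of the genes shown passed the test.

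Hbb-bh1 and Sox6 varied enough over the 7 arrays, with SDs of 0.34 and 0.33, for their nearest genes to be sought. The measure was the root mean square difference of gene-centred log2 values over the 7 arrays, among genes above the median level. The 3 genes nearest to Hbb-bh1 were Serinc5 at 0.125, Ublcp1 at 0.127 and Gm2016 at 0.148. Serinc5 read 9.54, 9.37, 9.82 and 9.54 on deletion arrays, against 9.38, 9.84 and 9.16 on control arrays. The 3 nearest to Sox6 were Neil1 at 0.115, Defb4 at 0.142 and E2f6 at 0.158. Neil1, a DNA glycosylase gene, was high on deletion replicate 3, at 6.37, and on control replicates 1 and 3, at 6.56 and 6.36, as Sox6 was. These are the closest of many genes over few arrays and are given as a description.

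Defining genes were read as a check of the labelled cell type. Car2 and Car1, carbonic anhydrase genes of red cell precursors, averaged 13.22 and 12.50 on deletion arrays and 13.27 and 12.41 on control arrays. The progenitor genes Gata2 and Myb averaged 12.42 and 12.16 on deletion arrays and 12.46 and 12.16 on control arrays. Of the 8 progenitor markers 4 lay above the median level, and 2 were higher at an unadjusted p under 0.05, against 2.27% of all tested probesets. These 2 were Lmo2 and Hoxa9, a homeobox gene below the median level with a difference of 0.36 and groups that did not overlap; Hoxa9 was picked after values were seen. Of 16 erythroid markers measured, 0 passed and 12 were lower in deletion cells, 2 of them at an unadjusted p under 0.05, against 2.37% of all tested probesets. They were Add2 at -0.44 (SE 0.12) and Tfrc at -0.17 (SE 0.06), both with groups that did not overlap. For all marker lists, the share to set beside this is the 5.15% of all tested probesets whose groups did not overlap. The median difference of the erythroid list was -0.05, beside 0.01 over all genes. The mean log2 level of the list ranged from 10.26 to 10.61 over deletion and from 10.40 to 10.56 over control arrays. Of 9 mast cell markers, 2 lay above the median level, Cpa3 and Ms4a2, and the summed linear level of the list ranged from 1517 to 3841 over deletion and from 1060 to 5105 over control arrays, mostly through these 2. Of the megakaryocyte markers 2 of 5 lay above the median level, Gp9 and Itga2b, at group means of 7.78 and 6.76 on deletion and 8.11 and 6.69 on control arrays. The groups did not overlap for Gp9, which had an unadjusted limma p of 0.0134 and did not pass. Gp9 was the 1 of 5 at an unadjusted limma p under 0.05, where 2.37% of all tested probesets were lower at that value. Of the 8 myeloid markers Cd68 alone lay above the median level, at 7.88 on deletion and 7.93 on control arrays. Elane averaged 5.65 on deletion and 5.52 on control arrays. Mpo was higher in deletion cells by 0.24 (SE 0.08), with groups that did not overlap. It was the 1 of 8 at an unadjusted limma p under 0.05, where 2.27% of all tested probesets were higher at that value. Add2, Tfrc and Mpo were picked after values were seen. Of the 7 lymphoid markers none lay above the median level. Cd4 and Cd79a, the brightest, averaged 5.42 and 4.96 on deletion and 5.55 and 5.14 on control arrays. None of the genes of these marker lists passed the test. The part of the mast cell signal in the spread of the globin probesets was not tested. Fewer cells of a type and less RNA per cell cannot be told apart in these bulk samples.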

How the data were processed

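Per the submitters' processing notes, the authors used RMA and Affymetrix Expression Console. No release, probe library or build was named in those notes. The deposited values lie between 1.87 and 14.01, as log2 values from RMA do, and no header states the scale. Of 41345 probesets, the 23521 with exactly 1 annotated symbol entered limma 3.58.1 under R 4.3.3 (lmFit and eBayes, both groups, no covariate, two-sided), with Benjamini-Hochberg adjustment and a threshold of 0.05. Differences are deletion minus control, and intervals are at 95%. A gene with several probesets is represented by the one with the highest mean over 7 arrays. Precision is limited by having 7 arrays.

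The members and lists were chosen with earlier results of these data known. Every member is named, and so are Lockd and Cdkn1b. Each list is shown by the 2 genes with the smallest p, and marker lists by the 2 brightest. Genes nearest a member were sought where its SD exceeded 0.3. No set test was run. The fit was tested on simulated data with independent noise and planted differences larger than that of any member. That test therefore does not cover differences as small as those of the members. Alternatives were other probeset filters, renormalization, variance models, array weights, replicate blocks and leaving out each array. Same-numbered deletion and control arrays did not deviate together, with correlations between -0.10 and 0.06 for title numbers and -0.17 and -0.10 for description numbers.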

Additional observations from a re-analysis of the deposited data

Results flagged for a closer look

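Of the genes and shared probesets examined, 1 stood out for a single deletion array far from the other deletion arrays. Itga2b, an integrin gene of megakaryocytes and early progenitors, read 6.41 on deletion replicate 2, whereas the other deletion arrays read 6.85 to 6.91. That gap is 0.875 of the range of the 4 deletion arrays, above Dixon's 95% critical value for 4 samples. The 4 deletion arrays were examined in this way for 39 genes or shared probesets named in the text, and chance flags about 1 in 20. Other named genes were not examined. Among these, Lockd read 4.17 on deletion replicate 3 and 5.09 to 5.15 on the other deletion arrays. Hemgn, also not examined, read 9.14 on deletion replicate 3 and 8.95 to 8.96 on the other deletion arrays. The 3 control arrays were too few to examine.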

How the results depend on the processing

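In limma, 0 globin and switching genes passed under any alternative run, and the smallest adjusted p over 148 values was 0.618. Direction was kept in 128 of the 148 and turned in the other 20. Other probeset filters and variance models leave a difference as it was, so its direction was fixed in advance there. The same holds for the mean of the gene's probesets where a gene has a single probeset. Such values count among the 128, so that count overstates how steady the directions were. Centring arrays gave -0.018 for Zbtb7a. Array weights gave 0.071 for Hbb-bh1, 0.013 for Myb and 0.0021 for Lin28b. The mean of the gene's probesets gave 0.027 for Myb. Leaving out each array gave -0.18 to 0.045 for Hbb-y, -0.21 to 0.22 for Hbb-bh1, -0.12 to 0.016 for Bcl11a, -0.015 to 0.026 for Zbtb7a, -0.031 to 0.021 for Myb and -0.14 to 0.082 for Lin28b. With an array left out, Hic2 ran from -0.29 to -0.17 and Sox6 from -0.42 to -0.04. Under the other alternatives, Hic2 ran from -0.25 to -0.10, the last with the mean of its probesets, and Sox6 from -0.34 to -0.13. The count of probesets past the threshold over the array, 2 with all arrays, ranged from 0 to 2 with an array left out and was 0 with all 41345 probesets tested. As a replicate block, the title number gave 0 probesets, Bcl11a 0.016 and Myb 0.0039, and the description number gave 0 probesets, Hbb-bh1 -0.25, Lin28b -0.18 and Hic2 -0.14. The unadjusted limma p of Hic2 was 0.0714 with the title block and 0.406 with the description block. The samples share only a number. Deletion replicate 4 has no control array of its title number, so the title block gave the same differences as leaving that array out. The description block could compare only arrays that share a number across groups, deletion replicates 1 and 2 with control replicates 2 and 3. The fixed lists had 0 genes past the threshold with any array left out. Hbb-y and Hba-x were below both level filters and so were not tested under them.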
